A study of Rattus norvegicus with 46 samples.

Results

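The lower villus of the duodenum was compared between iron-deficient and control Wistar rats on Affymetrix expression arrays. The comparison used 8 of the 46 arrays of the series, taken by their labels: the villus bottom arrays of 4 iron-deficient and 4 control rats, numbered in the labels as separate animals. All 8 rats were of the Wistar strain (++) and 1 month old when the groups were formed. Controls ate a normal diet and were not described as bled. Deficient rats ate a low-iron diet and lost 2 to 3 ml of blood every 3 days for 4 weeks, so diet and blood loss cannot be told apart. All rats fasted overnight before death under pentobarbital. A duodenal piece of 1 cm, taken 1 cm past the pylorus, was cut in a cryostat across the crypt-villus axis, and the sections of the lower villus were pooled into 1 RNA sample per rat. The villus top of the same rats gave a second array each. The shared spread also used villus bottom arrays of 3 repleted rats (low-iron and bled as above, then 50 µM ferric ammonium citrate in the drinking water for 3 days) and of 11 Belgrade (b/b) rats, which carry a mutant Slc11a2 on a Wistar background: 4 on a normal diet, 4 given iron for 3 days and 3 for 6 days.

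The duodenum is the main site of iron uptake. Ferric iron is reduced at the brush border by the reductase Cybrd1, carried into the enterocyte by the divalent metal transporter Slc11a2, and exported at the basolateral side by ferroportin, Slc40a1, with the ferroxidase hephaestin, Heph. Low iron and low oxygen raise several of these genes through hypoxia-inducible factor 2, and the iron regulatory proteins act on the messages of several of them. Enterocytes are born in the crypts, pass through the lower villus while they mature, and are shed at the tip.

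Values are given as log2(intensity + 44) after quantile normalization, in intensity units of the deposited arrays, so 1 unit is a change by a factor of 2 and the difference of a dim gene is understated. A difference is deficient minus control. Control rats 1 and 2 gave almost the same array, with a robust SD of their differences of 0.164 against 0.256 to 0.516 for the 11 other pairs within these groups, and were averaged and counted as 1 sample. Whether they are 1 animal or repeats is not known. Controls therefore count as n = 3 and deficient rats as n = 4. An exact permutation test of 3 against 4 samples cannot give a p below 0.0571, so the tests rest on limma, fitted to all 23047 probe sets that passed a filter on low values, with Benjamini-Hochberg adjustment.

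Some arrays stood apart. For 26 markers of smooth muscle and stroma, the mean level of the controls was 12.45, 12.60, 14.79 and 13.38 (rats 1 to 4), that of the deficient rats 12.35, 12.31, 12.01 and 12.31, and it was 14.79 in repleted rat 3. All 26 were above the filter level in every control array. The summed intensity of these markers ranged from 261067 to 1291656 in controls and from 192115 to 270161 in deficient rats. The mean of 19 exocrine pancreas markers was 13.53, 13.45, 7.77 and 7.98 in controls and 15.19, 7.72, 8.03 and 8.20 in deficient rats, so control rats 1 and 2 and deficient rat 1 were high and the groups overlapped. The mean of 15 enterocyte markers was 15.87, 15.89, 14.74 and 15.35 in controls, between 15.60 and 15.85 in deficient rats and 14.17 in repleted rat 3. All 15 passed the filter level in all 8 arrays, as the labelled tissue requires. Xist was high in control rat 4 (16.55) and repleted rat 3 (16.35) among these arrays, and between 5.68 and 6.43 in the deficient rats (probe set 1374684_at). The sex of the rats is not given in the labels.

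**Figure D1:**
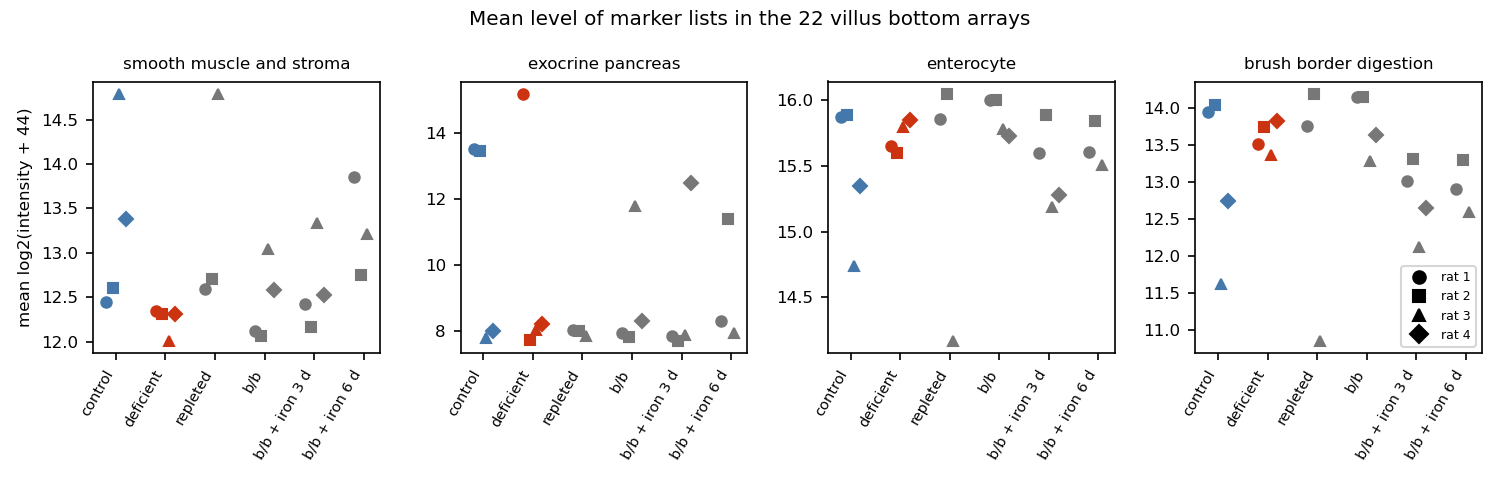
Mean log2(intensity + 44) of the markers of 4 lists (vertical axes) in each of the 22 villus bottom arrays (horizontal axes: group), with 1 symbol per rat number. Control rat 3 and repleted rat 3 have the highest stroma means (14.79 in both) and the lowest enterocyte and brush border means. Among control and deficient rats, pancreas markers are high in control rats 1 and 2 and deficient rat 1. The pancreas mean also reaches 11.8 in b/b rats on a normal diet, 12.47 after 3 days of iron and 11.39 after 6 days.

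How many probe sets passed depended on repleted rat 3, an array of neither group. With all 6 groups sharing the spread, 0 of 23047 probe sets had an adjusted p under 0.05 (lowest 0.0923), although 3239 (14.1%) had an unadjusted p under 0.05, of which 1554 were higher (6.74%) and 1685 lower (7.31%) in deficient rats. Without repleted rat 3 in the spread, 348 (1.51%) passed, 199 higher (0.863%) and 149 lower (0.647%) in deficient rats. With the control and deficient arrays alone, 156 (0.677%) passed, 123 higher (0.534%) and 33 lower (0.143%), and 101 probe sets were called in both of these fits. Leaving out repleted rat 3 does not change a difference, only its standard error. In the text below, "rose" and "fell" are used of probe sets that passed without repleted rat 3, a fit that was taken for this use after its count was known. None of them passed in the 6-group fit. In the gene paragraphs below, counts and adjusted p values under a further change also leave out repleted rat 3, unless 6 groups are named. Such a change is a sample left out, a scaling or a covariate. The count also rested on control rat 3: without it as well, 33 probe sets passed, and with the stroma mean as a covariate, 2. Leaving out control rat 4 or deficient rat 1, 2 or 3 as well gave 155, 137, 117 and 180, and leaving out both of control rats 1 and 2 gave 952. The share of higher calls moved with the scaling, to 488 higher and 111 lower with median centring and 147 higher and 194 lower with the values as deposited, where the median of all differences was 0.11 and -0.17. Samples did not overlap between groups for 1628 probe sets that were higher (7.06%) and 1623 that were lower (7.04%) in deficient rats, and the median difference over all probe sets was -0.01.

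Among the iron transport genes, Cybrd1 showed the largest difference. Its probe set 1377369_at read 11.94, 11.70, 11.86 and 12.01 in control rats 1 to 4 and 16.16, 16.07, 16.14 and 13.42 in deficient rats 1 to 4. Every deficient rat lay above every control, and deficient rat 4 lay far below the other deficient rats. The means were 11.90 ± 0.10 (SD, n = 3) and 15.45 ± 1.35 (SD, n = 4), and the message rose 11.7-fold, a log2 difference of 3.55 (SE 0.59, limma adjusted p = 0.00681 without repleted rat 3, 0.0277 with the 2 groups alone, 0.108 with 6 groups).

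Slc11a2, the apical iron transporter, rose by both of its probe sets. The brighter, 1367877_at, read 15.24, 15.20, 13.74 and 14.08 in controls and 16.99, 16.93, 17.03 and 16.00 in deficient rats. The groups did not overlap, and the nearest values were those of control rats 1 and 2 and of deficient rat 4. The difference was 2.39, or 5.25-fold (SE 0.30, limma adjusted p = 0.00151 without repleted rat 3, 0.158 with 6 groups). The less bright 1388059_a_at differed by 2.63, or 6.20-fold, from 12.29, 12.11, 10.93 and 11.07 to 13.96, 14.29, 14.56 and 13.32 (adjusted p = 0.00188).

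The iron exporter Slc40a1 and its partner oxidase rose less. Ferroportin read 14.45, 14.42, 13.25 and 14.47 in controls and 15.74, 15.73, 16.04 and 15.39 in deficient rats by 1387130_at, a 3.19-fold rise (difference 1.67, SE 0.28, adjusted p = 0.00716). Control rat 3 was the lowest array and the groups were apart. Of its other probe sets, 1390412_at rose by 1.52 (adjusted p = 0.016) and the dimmer 1376972_at differed by 1.10 with overlapping groups (adjusted p = 0.166). Heph read 14.36, 14.38, 13.01 and 13.33 in controls and 14.98, 15.04, 15.18 and 14.38 in deficient rats. Deficient rat 4 was at the level of control rats 1 and 2, and the 2.51-fold rise passed without repleted rat 3 (difference 1.33, SE 0.27, adjusted p = 0.019) but not with the 2 groups alone (0.0897).

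The transferrin receptor Tfrc, which takes up iron from blood at the basolateral side, gave unlike results by probe set. The dimmer 1371113_a_at read 12.06, 12.26, 12.82 and 13 in controls and 14.52, 14.49, 14.23 and 13.17 in deficient rats, and rose 2.72-fold (difference 1.45, SE 0.30, adjusted p = 0.022). The brighter 1388750_at lay between 15.33 and 15.82 in controls and between 15.80 and 16.20 in deficient rats, which overlapped, with a difference of 0.31 (adjusted p = 0.219). Ireb2, which encodes iron regulatory protein 2, rose by 1.42 from 9.58, 10.59, 10.14 and 10.29 to 11.49, 11.73, 11.94 and 11.21 (adjusted p = 0.0256).

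**Figure D2:**
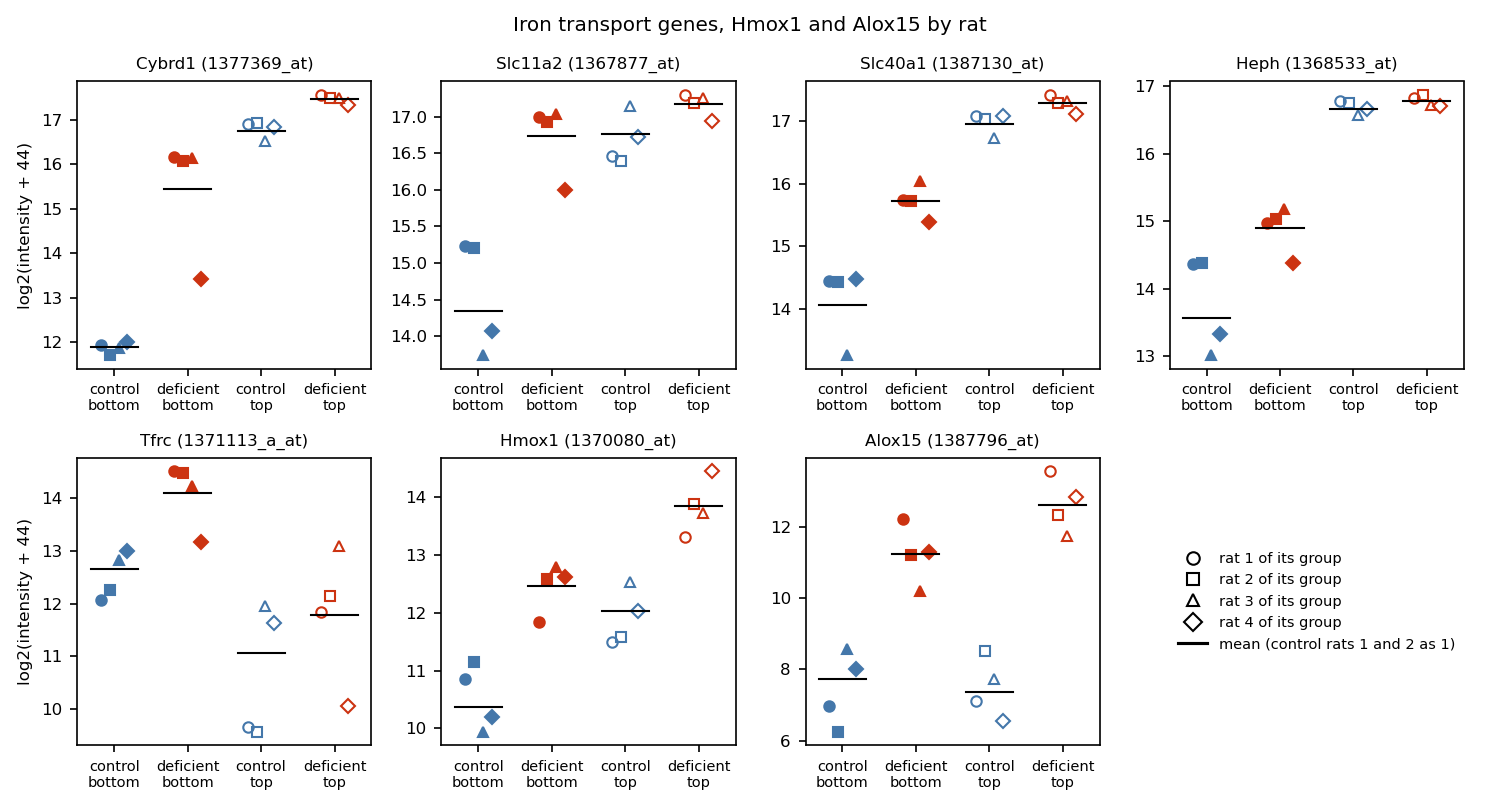
Levels of 7 genes in each rat, as log2(intensity + 44) (vertical axes), in the villus bottom (filled) and top (open) of control (blue) and deficient (red) rats, with lines at the group means. Cybrd1 at the bottom goes from 11.70 to 12.01 in controls to 13.42 to 16.16 in deficient rats, while its top values lie between 16.53 and 17.57 in all 8 rats.

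With the pancreas mean as a covariate and repleted rat 3 left out, Cybrd1, Slc11a2, Slc40a1 and Heph stayed called (adjusted p = 0.00718, 0.00107, 0.00791 and 0.0189). With the stroma mean as a covariate and repleted rat 3 left out, the differences were 3.17 for Cybrd1 (adjusted p = 0.203), 1.79 for the brighter Slc11a2 probe set (0.103), 1.02 for Slc40a1 (0.335) and 0.73 for Heph (0.541). With both control rat 3 and repleted rat 3 left out, Cybrd1 (3.53, adjusted p = 0.0411) and Slc11a2 (2.09, 0.0117) remained called, and Slc40a1 (1.27, 0.0573) and Heph (1.05, 0.172) did not. With control rat 3 alone left out of the 6-group fit, none of these was called (adjusted p = 0.426, 0.537, 0.598 and 0.638). The part of stroma in these differences was not tested beyond these values. A lower share of enterocytes and less message per enterocyte cannot be told apart in pooled sections, here and below.

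The promoters of Cybrd1, Slc11a2 and Heph are shown because hypoxia-inducible factors are known to act on several iron transport genes. The windows hold the 250 bases before each start of transcription in the RefSeq table (rat build GRCr8), 5′ to 3′ on the gene's strand. Capitals mark the core of the hypoxia response element, searched as ACGTG and GCGTG on both strands, so CACGT and CACGC are the same letters read from the other strand, and CACGTG holds overlapping matches. This core was found in 12284 of 33469 promoters (36.7%). Cybrd1 (chr3:76342343-76342592, plus strand) held 1 match, 241 bases before the start. Slc11a2 has a pair of listed starts on the minus strand, of which the downstream one (chr7:133417789-133418038) held 1 match at 165 bases and the upstream one (chr7:133418940-133419189) none. Heph (chrX:65308806-65309055, plus strand) held 1 match at 81 bases.
Cybrd1: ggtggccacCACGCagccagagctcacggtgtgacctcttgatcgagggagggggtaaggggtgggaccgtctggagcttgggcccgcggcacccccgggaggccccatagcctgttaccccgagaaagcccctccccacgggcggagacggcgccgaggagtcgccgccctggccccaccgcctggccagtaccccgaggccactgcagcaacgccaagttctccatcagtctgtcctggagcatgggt
Slc11a2 downstream start: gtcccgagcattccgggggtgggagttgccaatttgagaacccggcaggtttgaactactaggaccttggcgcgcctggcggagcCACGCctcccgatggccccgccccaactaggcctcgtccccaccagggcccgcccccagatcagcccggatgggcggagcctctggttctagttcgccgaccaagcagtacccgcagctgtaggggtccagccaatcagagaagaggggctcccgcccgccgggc
Slc11a2 upstream start: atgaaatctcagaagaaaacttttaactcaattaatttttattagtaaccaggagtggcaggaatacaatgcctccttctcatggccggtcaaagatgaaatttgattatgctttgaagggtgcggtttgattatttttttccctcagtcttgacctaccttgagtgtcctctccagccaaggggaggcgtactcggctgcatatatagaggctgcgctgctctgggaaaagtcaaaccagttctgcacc
Heph: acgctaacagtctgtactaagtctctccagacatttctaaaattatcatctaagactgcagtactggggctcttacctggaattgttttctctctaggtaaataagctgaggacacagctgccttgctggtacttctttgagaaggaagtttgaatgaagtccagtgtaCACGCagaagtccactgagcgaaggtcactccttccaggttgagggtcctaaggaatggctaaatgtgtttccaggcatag

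Of the 6 promoters listed for Cybrd1, Slc11a2, Slc40a1, Heph and Tfrc, 4 held the core (66.7%), those of Slc40a1 and of the second Slc11a2 start being the others. A match describes letters only, and a window without one says nothing of the factor.

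The wider iron handling list was mixed. Of its 22 genes tested, 11 differences were positive and 11 negative, with a median of 0.01 that changed sign with the scaling (-0.03 with the values as deposited, 0.25 with median centring). By the brightest probe set of each gene, 5 rose (Cybrd1, Slc11a2, Slc40a1, Heph and Ireb2), against 0.863% of all probe sets, and 0 fell. Without control rat 3 as well, 2 of the 22 passed, and with the stroma covariate 0. Differences near 0 were seen for the hormone hepcidin, Hamp (-0.04, adjusted p = 0.985), for ceruloplasmin, Cp (-0.04, 0.965), for iron regulatory protein 1, Aco1 (-0.07, 0.908) and for Fbxl5, the ligase that degrades Ireb2 (0.00, 0.997). The zinc and iron importer Slc39a14 was 0.83 higher with no overlap but did not pass (adjusted p = 0.0862).

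Among heme genes, the degrading oxygenase, an exporter and the first enzyme of synthesis rose. Hmox1, which encodes the heme-degrading oxygenase, read 10.85, 11.14, 9.94 and 10.19 in controls and 11.83, 12.57, 12.79 and 12.61 in deficient rats. No sample overlapped, and the message rose 4.22-fold (difference 2.08, SE 0.30, adjusted p = 0.00176 without repleted rat 3, 0.152 with 6 groups). It also rose at the villus top, by 1.80 (adjusted p = 0.00247 with 6 groups).

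Abcg2, an apical exporter of porphyrins and drugs, read 12.57, 12.63, 10.41 and 11.61 in controls and 14.13, 14.25, 14.82 and 13.30 in deficient rats, a 6.00-fold rise (difference 2.59, SE 0.47, adjusted p = 0.0114). Its lowest array was control rat 3, and without that rat it was not called (2.02, adjusted p = 0.111). Alas1, the first enzyme of heme synthesis, rose by 1.11 (adjusted p = 0.0163). These 3 were the called members among 17 heme genes tested, against 0.863% of all probe sets. Of the 17 differences 14 were positive, against 11293 of all 23047, with a median of 0.44. Without control rat 3 as well, 1 of the 17 passed. The ferrochelatase Fech (0.12, adjusted p = 0.822) and the heme and folate carrier Slc46a1 (0.93, 0.434) were not called.

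Alox15, an arachidonate lipoxygenase, stood out among the largest rises. Its levels were 6.98, 6.24, 8.58 and 8.01 in controls and 12.21, 11.20, 10.19 and 11.30 in deficient rats. Groups were far apart, and the rise of 3.49 (SE 0.48, adjusted p = 0.00151 without repleted rat 3) had the lowest adjusted p of the 6-group fit, 0.0923, shared with other probe sets. The control levels are at the low end of the arrays, so no fold is given: the difference was 3.67 with a pseudocount of 23 and 2.68 with one of 219 intensity units, and the same holds for Slc30a1 and Areg below. The naming rule given below took 54 probe sets that passed at the bottom without repleted rat 3. Of these, Alox15 was the one that also passed with the stroma covariate (4.41, adjusted p = 0.00213). Its highest adjusted p over the 18 alternatives of that fit was 0.0151. At the villus top it was higher still, from between 6.54 and 8.52 in controls to between 11.74 and 13.56 in deficient rats (difference 5.25, adjusted p = 0.00816). The other 13 lipoxygenase and prostanoid genes tested were not called.

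Levels of these genes in the other groups are given as a description, without a test. Cybrd1 read 14.53, 16.23 and 11.48 in the 3 repleted rats, 15.66 to 15.83 in b/b rats on a normal diet, 12.98 to 15.28 after 3 days of iron and 13.89 to 14.99 after 6 days. All of these but repleted rat 3 lay above the 4 controls. Slc11a2 (1367877_at) read 16.44, 17.21 and 12.46 in repleted rats and 16.68 to 16.85 in b/b rats on a normal diet, within the range of the deficient rats except for repleted rats 2 and 3. Alox15 was 11.41, 11.84 and 8.78 in repleted rats and 11.61 to 13.32 in b/b rats on a normal diet. Repleted rat 3, the array with the high stroma markers, was the lowest of these arrays in all 3 genes.

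Genes listed as hypoxia-inducible or glycolytic formed the next group. Of 38 hypoxia and glycolysis genes tested, 33 differences were positive with a median of 0.35, 13 were higher without overlap (34.2%, against 7.06% of all) and 2 lower without overlap. Without repleted rat 3, 8 rose (against 0.863% of all probe sets) and 0 fell. The rises were those of Ankrd37, Slc16a3, Car9, Egln3, Bhlhe40, Ldha, Pgk1 and Higd1a.

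Ankrd37, an ankyrin repeat protein induced in hypoxia, read 8.88, 9.74, 9.22 and 6.97 in controls and 10.72, 11.81, 10.68 and 10.33 in deficient rats, a 5.24-fold rise (difference 2.39, adjusted p = 0.0246). Its difference was 1.86 with the larger pseudocount. Slc16a3, the lactate exporter MCT4, rose 4.88-fold from 9.72, 9.42, 8.89 and 8.53 to 11.14, 11.32, 12.33 and 10.33 (adjusted p = 0.0114). Car9, a carbonic anhydrase, rose 3.23-fold from 11.34, 11.05, 10.17 and 10.30 to 11.93, 12.50, 12.52 and 12.02 (adjusted p = 0.0109). In each of the 3 the deficient rats all lay above the controls.

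Egln3, the prolyl hydroxylase that marks hypoxia-inducible factors for decay and is itself induced by them, read 10.99, 11.07, 12.05 and 10.82 in controls and 12.26, 12.71, 13.15 and 12.99 in deficient rats (difference 1.48, adjusted p = 0.0104). Bhlhe40, a repressor of transcription, had little spread: 11.16, 11.35, 11.16 and 11.47 in controls and 12.30, 12.83, 12.91 and 12.60 in deficient rats, a 2.58-fold rise (difference 1.37, adjusted p = 0.00969). The glycolytic Ldha and Pgk1 and the mitochondrial Higd1a rose by 0.57 (adjusted p = 0.0404), 0.56 (0.0388) and 0.53 (0.0455).

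Not all such genes passed. Vegfa (0.73, adjusted p = 0.0826), the glucose carrier Slc2a1 (0.68, 0.0865), Ndrg1 (0.64, 0.0795) and Epas1, which encodes hypoxia-inducible factor 2α (0.61, 0.0849), did not pass. Their differences were still larger than those of Ldha, Pgk1 and Higd1a, which passed. Hif1a (-0.25), Hk2 (0.01), Ddit4 (0.01) and P4ha1 (-0.01) did not pass either. The count of 8 was 1 without control rat 3, 2 without control rat 4, 0 with the stroma covariate and 12 with median centring.

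Of the called hypoxia genes with several matches, the promoters of Ankrd37 and Bhlhe40 are shown, with the same core in capitals as above. Those of Ldha (4 matches) and Higd1a (3 matches) are not shown. The core was in 4 of 7 promoters of the called genes (57.1%) and in 20 of 33 of the other tested genes of the list (60.6%), against 36.7% of all promoters. Among the called genes, the promoters of Car9, Egln3 and Slc16a3 held no match. Ankrd37 (chr16:53001257-53001506, plus strand) held matches at 236, 147, 23 and 22 bases before the start, and Bhlhe40 (chr4:143174200-143174449, plus strand) at 220, 219, 149 and 124 bases.
Ankrd37: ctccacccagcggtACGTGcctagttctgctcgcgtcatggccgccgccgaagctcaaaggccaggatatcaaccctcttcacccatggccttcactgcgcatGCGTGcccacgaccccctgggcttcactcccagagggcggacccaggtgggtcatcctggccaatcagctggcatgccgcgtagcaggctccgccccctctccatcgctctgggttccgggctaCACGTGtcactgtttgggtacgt
Bhlhe40: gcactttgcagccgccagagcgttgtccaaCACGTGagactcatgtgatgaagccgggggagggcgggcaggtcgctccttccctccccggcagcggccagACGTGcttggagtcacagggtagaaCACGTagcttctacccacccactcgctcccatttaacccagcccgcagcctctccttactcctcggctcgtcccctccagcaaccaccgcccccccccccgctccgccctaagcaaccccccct

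Genes of cholesterol synthesis were higher as a group in deficient rats. All 24 genes tested of this pathway and of its control by sterol regulatory element binding proteins had positive differences, with a median of 1.18, and 17 were higher without overlap (70.8%, against 7.06% of all). Without repleted rat 3, 15 rose (against 0.863% of all probe sets) and 0 fell, and with the 2 groups alone 13. The rises ran along the pathway, from Acat2 (1.53) and Mvd (1.25) through Idi1, Fdps (1.02), Fdft1 (1.79), Sqle and Lss (1.32) to Cyp51 (1.21), Msmo1, Nsdhl (1.22), Hsd17b7 (1.48), Sc5d and Dhcr7 (0.87). Pmvk (1.06) and Insig1 (1.72), the sterol-sensing anchor in the endoplasmic reticulum, were the others.

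Msmo1, a sterol C4 methyl oxidase, read 13.96, 13.93, 12.99 and 13.20 in controls and 15.42, 15.66, 15.21 and 14.88 in deficient rats, a 3.76-fold rise (difference 1.91, adjusted p = 0.00151 without repleted rat 3, 0.109 with 6 groups). Squalene epoxidase, Sqle, read 12.50, 12.56, 11.78 and 12.11 in controls and 13.96, 14.21, 13.71 and 14.00 in deficient rats, a 3.56-fold rise (difference 1.83, adjusted p = 0.00151). Idi1, the isopentenyl diphosphate isomerase, rose by 1.59 from 14.41, 14.33, 13.91 and 13.62 to 15.81, 15.95, 15.46 and 14.98, with the same adjusted p. In all 3 the groups were apart, and control rats 1 and 2 lay above control rats 3 and 4.

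Sc5d, the desaturase near the end of the pathway, read 13.63, 13.72, 12.49 and 12.65 in controls and 14.55, 14.76, 14.42 and 14.54 in deficient rats (difference 1.63, adjusted p = 0.00151). The regulators were closer to 0: Srebf2 differed by 0.19, Srebf1 by 0.20 and Scap, their escort, by 0.03, none of them called. Mvk (1.15, adjusted p = 0.0602) and Tm7sf2 (1.15, 0.142) did not pass. Abca1, the cholesterol exporter, fell 2.41-fold, from 11.43, 11.70, 12.36 and 11.79 to 10.93, 10.37, 10.60 and 10.66 (difference -1.27, adjusted p = 0.0249).

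The count of 15 was 9 without control rat 3, 13 without control rat 4, 12 to 15 without a deficient rat and 17 without control rats 1 and 2. With the stroma covariate it was 0, with the list median at 0.90. At the villus top the list's median difference was 0.78, with Msmo1 at 1.88, Sqle at 1.63 and Idi1 at 1.55. The sterol regulatory element, searched as TCACNCCAC on both strands, was in 326 of 33469 promoters (0.974%), in 0 of 12 promoters of called genes and in 0 of 9 of the other tested genes of the list. That says only that these letters are not within 250 bases before the starts listed.

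**Figure D3:**
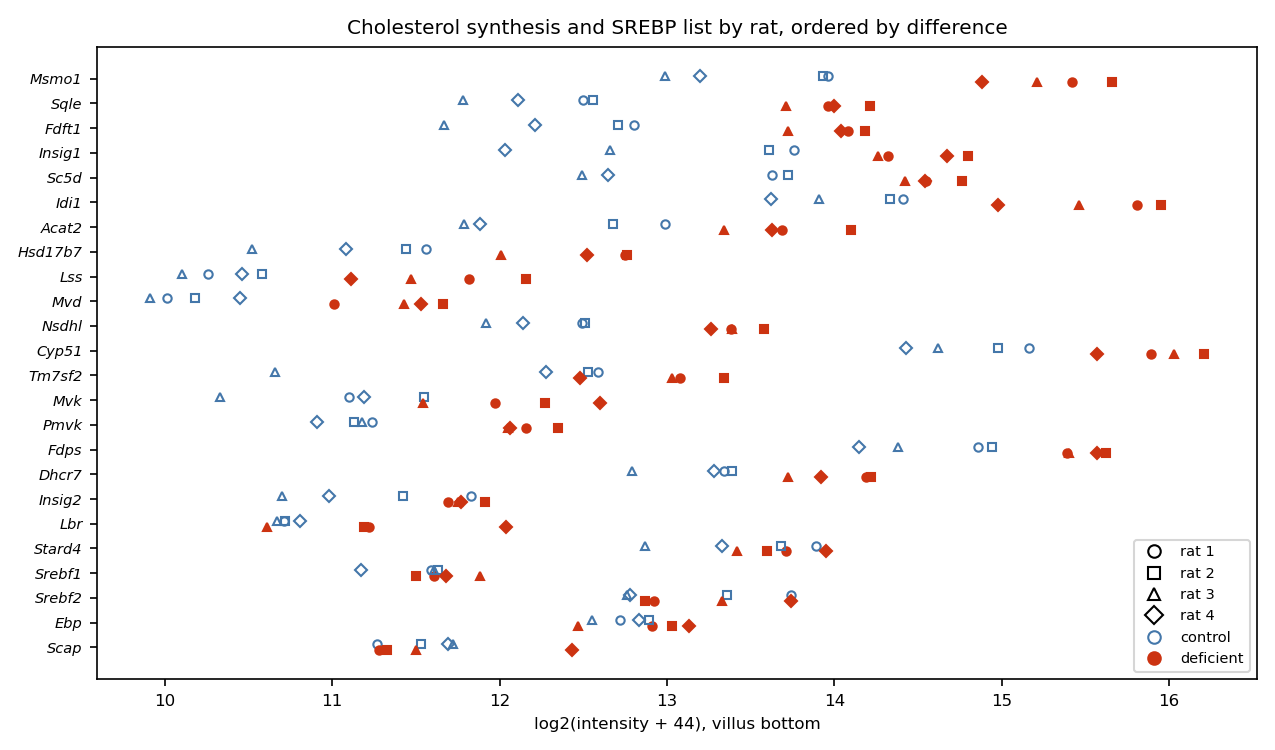
Levels of the 24 tested genes of the cholesterol synthesis list by rat, as log2(intensity + 44) at the villus bottom (horizontal axis), ordered by difference, with control rats in blue open symbols and deficient rats in red filled symbols. Msmo1 at the head of the order lies between 12.99 and 13.96 in controls and between 14.88 and 15.66 in deficient rats, and all 24 differences are positive.

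Metal exporters other than ferroportin also rose. Slc30a1, the zinc exporter of the basolateral side, read 7.67, 7.05, 7.69 and 5.91 in controls and 10.15, 10.35, 9.87 and 10.43 in deficient rats. These are low levels in controls, the groups were far apart, and the rise was 3.21 (SE 0.61, adjusted p = 0.0126), or 2.11 with the larger pseudocount. At the top it differed by 2.33. Atp7a, the copper exporter, read 12.41, 12.75, 12.25 and 12.16 in controls and 13.80, 13.70, 14.19 and 13.49 in deficient rats, a 2.76-fold rise (difference 1.47, adjusted p = 0.00223).

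Slc30a10, a manganese exporter, rose by 2.09 (adjusted p = 0.0289) although deficient rat 4, at 12.26, lay within the controls (10.64 to 12.97). The copper importer Slc31a1 differed by probe set: 1368046_at rose by 2.80 from 10.21, 10.38, 9.28 and 10.04 to 12.85, 13.02, 12.39 and 12.43 (adjusted p = 0.0246), 1368045_at rose by 1.33 (0.0126), 1394871_at was 1.17 higher (0.113) and the brightest was 0.72 higher with overlap (0.0909). Of 27 copper and zinc genes tested, 3 rose (against 0.863% of all probe sets) and 0 fell, 15 differences were positive, a share near that of all probe sets, and the median was 0.10. The count was 1 without control rat 4 and 0 with the stroma covariate, where the differences were 3.58 for Slc30a1 (adjusted p = 0.147), 1.24 for Atp7a (0.144) and 1.35 for Slc30a10 (0.571). The metallothioneins, which bind zinc and copper, did not pass (Mt1 -0.32, Mt2A -0.83).

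The Slc30a1 promoter is shown because the gene is a known target of the zinc sensor MTF1. Capitals mark the core of the metal response element, searched as TGCACNC and TGCGCNC on both strands (GNGTGCA and GNGCGCA from the other strand), which was in 6883 of 33469 promoters (20.6%), in 1 of 2 promoters of called genes of the list and in 16 of 24 of the others. Slc30a1 (RefSeq, GRCr8, chr13:106021769-106022018, plus strand) held matches at 91 and 18 bases before the start.
Slc30a1: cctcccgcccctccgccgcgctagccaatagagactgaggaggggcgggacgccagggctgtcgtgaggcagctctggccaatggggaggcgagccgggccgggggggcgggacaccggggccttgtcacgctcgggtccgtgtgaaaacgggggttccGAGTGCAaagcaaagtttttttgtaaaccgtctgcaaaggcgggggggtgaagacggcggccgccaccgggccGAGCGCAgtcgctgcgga

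The 12 largest rises without overlap also held Areg, Prss35, Kitlg, Xpo7 and Caprin1. Areg, the epidermal growth factor receptor ligand amphiregulin, read 5.95, 8.56, 5.89 and 9.01 in controls and 11.24, 11.35, 10.87 and 9.78 in deficient rats, a rise of 3.42 (adjusted p = 0.0104) that was 2.35 with the larger pseudocount. The spread of controls was wide at these low levels. Areg was the 1 called of 11 epidermal growth factor receptor ligands and receptors tested (against 0.863% of all probe sets). Prss35, a serine protease, rose by 3.07 from 7.54, 7.24, 8.20 and 9.30 to 12.35, 11.54, 10.79 and 10.79 (adjusted p = 0.0377). Kitlg, the ligand of the receptor Kit, rose by 2.55 by 1396214_at (adjusted p = 0.037), but its other tested probe sets did not: 1370770_s_at differed by 0.88, 1388096_at by 0.71 and the brightest, 1388856_at, by -0.07. Xpo7 and Caprin1 likewise rose by 1 dim probe set each (2.38 and 2.36) and not by their brightest ones (-0.20 and -0.17). The dim ones gave 1.25 and 2.0 with the larger pseudocount.

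Single genes rose from other lists, against 0.863% of all probe sets. Trib3, a stress-induced pseudokinase, rose by 2.35 from 9.85, 8.77, 8.79 and 9.23 to 12.56, 11.75, 11.51 and 10.02 (adjusted p = 0.0114), the 1 called of 22 genes of the ATF4 response. Its probe set has a name ending in _s_at, which marks probes that can match related transcripts. Me1, the malic enzyme that supplies NADPH, rose by 1.60 from 12.98, 13.09, 11.32 and 12.48 to 13.77, 13.99, 13.92 and 13.82 (adjusted p = 0.0246), the 1 called of 23 NRF2 targets. Sult1b1, a sulfotransferase, rose by 0.99 (adjusted p = 0.0178), 1 of 14 xenobiotic genes. Alas2, the heme synthesis enzyme of red cell precursors, rose by 1.28 (adjusted p = 0.037). The mean of the 4 red blood cell genes tested was 9.40 to 9.90 in controls and 10.02 to 11.17 in deficient rats, and the part of blood in the Alas2 value was not tested.

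Markers of connective tissue and muscle were lower in deficient rats. All 26 smooth muscle and stroma markers had negative differences, with a median of -1.39, 10 of them without overlap (38.5%, against 7.04% of all), and 9 fell (against 0.647%). These were Aebp1, Col1a2, Col6a1, Col6a2, Postn, Vim, Dcn, Pdgfra and Mylk. Col1a2, a chain of type I collagen, read 13.01, 13.13, 15.50 and 14.21 in controls and 11.77, 12.63, 12.11 and 12.27 in deficient rats, a 4.19-fold fall (difference -2.07, adjusted p = 0.0308). Control rats 3 and 4 were the high ones, and control rats 1 and 2 lay just above deficient rat 2.

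The chains of type VI collagen, a microfibril of the matrix, fell together. Col6a2 read 12.05, 12.11, 13.17 and 12.56 in controls and 10.18, 11.18, 10.74 and 11.32 in deficient rats (difference -1.75, adjusted p = 0.0125), Col6a3 fell by 1.64 (0.0126) and Col6a1 fell by 1.38 (0.00466). With control rat 3 left out besides repleted rat 3, Col6a1 kept its call (-1.07, adjusted p = 0.0366) and Col6a2 did not (-1.47, 0.123). The smooth muscle genes Myh11 (-1.81, adjusted p = 0.0862), Acta2 (-1.37, 0.281) and Des (-1.73, 0.26) had overlapping groups and did not pass.

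The stroma count was 1 without control rat 3, with the list median at -0.68, 2 without control rat 4 and 2 without deficient rat 1, 5 with median centring, 4 with Xist as a covariate and 17 without control rats 1 and 2. At the villus top the median difference of the list was -0.19.

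**Figure D4:**
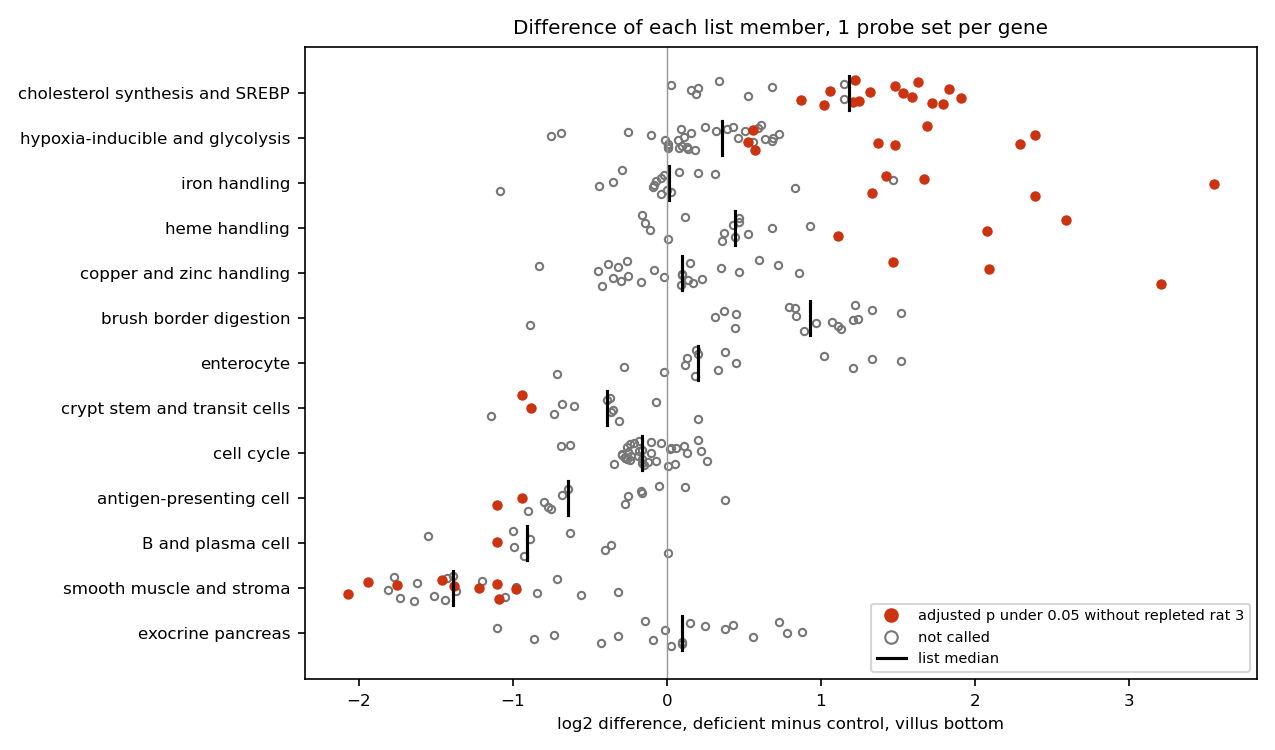
Log2 difference, deficient minus control at the villus bottom (horizontal axis), of every tested gene of 13 lists (vertical axis), with 1 point per gene, red where the adjusted p was under 0.05 without repleted rat 3, and a bar at the list median. Cholesterol synthesis lies to the right of 0 (median 1.18) and smooth muscle and stroma to the left (median -1.39), and exocrine pancreas is spread around its median of 0.10.

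Other large falls were those of Tmem71, a membrane protein, from 9.72, 8.89, 9.05 and 9.92 to 6.86, 7.94, 6.19 and 6.63 (difference -2.52, adjusted p = 0.0324), and of Mab21l2, from 10.11, 10.09, 12.14 and 10.55 to 8.70, 9.22, 9.24 and 6.81 (-2.44, 0.031). These differences were -1.53 and -1.93 with the larger pseudocount. Sln, sarcolipin of muscle (-2.49, adjusted p = 0.039), the potassium channel partner Kcnip2 (-2.33, 0.031), Selenow (-1.98, 0.0386) and the laminin chain Lamb2 (-1.65, 0.0254) fell as well. They differed by -1.48, -1.96, -1.69 and -1.47 with the larger pseudocount. Abca8a, a lipid transporter, had little spread: 12.32, 12.50, 12.63 and 12.88 in controls and 10.57, 10.89, 11.21 and 10.90 in deficient rats (difference -1.75, 3.36-fold lower, adjusted p = 0.00151). It was called with control rat 3 left out besides repleted rat 3 (-1.75, adjusted p = 0.0145), but not with the stroma covariate (-1.75, 0.103).

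Immune cell markers were lower in part. Of 15 genes of antigen-presenting cells tested, 13 differences were negative, with a median of -0.64, 7 were lower without overlap (46.7%, against 7.04% of all) and 2 fell (against 0.647%). RT1-Db1, a class II histocompatibility chain, read 13.83, 13.88, 13.53 and 13.48 in controls and 12.75, 12.54, 12.71 and 12.08 in deficient rats (difference -1.10, adjusted p = 0.0204), by a probe set that can match related transcripts. C1qc of complement fell by 0.94 (adjusted p = 0.037). Cd74, the class II invariant chain, was 0.90 lower on the log2 scale without overlap and passed with the 2 groups alone (adjusted p = 0.0392) but not without repleted rat 3 (0.0643). Cybb, the phagocyte oxidase, fell by 1.74 from 11.79, 11.49, 11.55 and 10.41 to 9.82, 9.27, 9.72 and 9.04 (adjusted p = 0.0381).

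The summed intensity of the antigen-presenting cell markers was 129221 to 134578 in the control arrays and 61157 to 92533 in the deficient ones, with no overlap. Of 10 B and plasma cell genes, 9 differences were negative with a median of -0.91, 5 were lower without overlap (50%, against 7.04% of all) and 1 fell (against 0.647%): Mzb1, of antibody-secreting cells, from 12.59, 12.49, 12.75 and 12.29 to 11.26, 11.80, 11.35 and 11.29 (difference -1.10, adjusted p = 0.0117). The joining chain of secreted antibodies, Jchain, was 0.40 lower on the log2 scale (adjusted p = 0.142). None of the 12 T cell and 7 mast cell genes was called, and their median differences were 0.05 and 0.03. The stroma mean was also lower in the deficient rats, as given above. With it as a covariate none of the 4 named calls held, while the differences were -1.37 for RT1-Db1 (adjusted p = 0.115), -1.05 for C1qc (0.335), -1.89 for Cybb (0.378) and -1.0 for Mzb1 (0.289).

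In the epithelial lists few genes passed. Over all probe sets, 6.74% were higher and 7.31% lower at an unadjusted limma p under 0.05 with 6 groups. Brush border digestion had 17 of 18 differences positive and a median of 0.93, but 0 passed (limma, 1 at an unadjusted p under 0.05 with 6 groups). Its mean was 13.94, 14.04, 11.62 and 12.75 in controls and 13.36 to 13.83 in deficient rats, so control rat 3 was low and control rats 1 and 2 were higher than any deficient rat. Dpp4 (0.89, adjusted p = 0.0637) and Cdhr2 (1.22, 0.0696) came nearest. Among 15 enterocyte genes the median was 0.20 and 0 passed (0 unadjusted), and among 32 nutrient, ion and water transport genes the median was 0.40 and 0 passed (2 higher and 1 lower unadjusted). In the lipid absorption list, Abca1, which fell, was the 1 called of 22 (against 0.647% of all probe sets).

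Of 13 crypt stem and transit cell genes, 12 differences were negative with a median of -0.39, and 2 fell (against 0.647% of all probe sets), Smoc2 (-0.94, adjusted p = 0.037) and Lrig1, an inhibitor of epidermal growth factor receptors (-0.88, 0.0487). Neither passed without control rat 3. The 36 cell cycle genes had a median of -0.16 with 0 called (2 lower unadjusted, against 7.31% of all). The nearest was Top2a, the topoisomerase of dividing cells (-0.63, adjusted p = 0.0677). The 31 genes of mitochondrial respiration and iron-sulfur clusters had a median of 0.01 and 0 called (1 higher unadjusted, against 6.74% of all). Somatostatin, Sst, fell by 0.87 on the log2 scale (adjusted p = 0.0355), the 1 called of 12 enteroendocrine genes (against 0.647% of all probe sets). Goblet, Paneth, endothelial, nerve and glia, exocrine pancreas, glucocorticoid, circadian and immediate early lists had 0 called genes.

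Tff2, a trefoil peptide of Brunner's glands and stomach, read 9.57, 9.40, 9.11 and 8.69 in controls and 11.20, 16.00, 13.43 and 9.96 in deficient rats. The groups did not overlap, yet the difference of 3.55 did not pass (adjusted p = 0.214), since the deficient rats spread widely. The mean of the 4 gland genes tested was 8.25 to 9.17 in controls and 9.38 to 11.24 in deficient rats. Deficient rat 2 was the highest.

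Whether the difference between deficient and control rats was unlike at the villus bottom and the top was tested within rats. The value tested is the difference at the bottom minus that at the top. A positive value can therefore also come from a lower level at the top of deficient rats. With 6 groups 0 probe sets passed, although 2297 (9.97%) had an unadjusted p under 0.05. Without repleted rat 3, 228 passed (0.989%), 170 positive (0.738%) and 58 negative (0.252%).

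The iron transport genes were already high in controls at the villus top and had smaller differences there. Whether the arrays can show a further rise at such levels was not tested. Cybrd1 at the top read 16.90, 16.93, 16.53 and 16.83 in controls and 17.57, 17.49, 17.49 and 17.33 in deficient rats, a difference of 0.71, so the bottom exceeded the top by 2.84 (adjusted p = 0.0471 without repleted rat 3, 0.244 with 6 groups). Slc11a2 differed by 0.41 at the top, from 16.46, 16.40, 17.14 and 16.72 to 17.30, 17.18, 17.25 and 16.94, and the bottom exceeded the top by 1.98 (adjusted p = 0.0359). Slc40a1 differed by 0.33 at the top, with an excess at the bottom of 1.34 (0.0379). Its top values lay between 16.73 and 17.43 in all 8 rats. Heph (1.21, adjusted p = 0.071) and the less bright Slc11a2 probe set (1.22, 0.183) did not pass this test, and neither did Hmox1 (0.27, 0.855) or Alox15 (-1.76, 0.133).

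Me1 differed by 1.60 at the bottom and 0.04 at the top, a difference between segments of 1.56 (adjusted p = 0.0384). The largest positive values came from genes that were lower at the top of deficient rats. Dnase1, an endonuclease of the gut lumen, read 15.00, 15.05, 13.18 and 14.16 at the top of controls and 9.17, 6.85, 6.52 and 6.63 at the top of deficient rats, a difference of -6.83. At the bottom its difference was -0.40 with controls from 6.52 to 12.57, so that bottom minus top was 6.43 (adjusted p = 0.0328). The transcription factor Klf15 (bottom -0.24, top -3.41), the sterol exporter subunit Abcg8 (1.06 and -2.38), the sulfate carrier Slc13a1 (1.16 and -1.90) and the fructose carrier Slc2a5 (1.71 and -1.36) had the same form. Their differences between segments were 3.16 (adjusted p = 0.0328), 3.44 (0.0324), 3.06 (0.0328) and 3.07 (0.0312). Of these, Slc13a1 rose at the bottom by itself (adjusted p = 0.0377). Inmt, a methyltransferase, had the opposite form, with -1.93 at the bottom and 1.22 at the top (difference between segments -3.15, adjusted p = 0.0398).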

How the data were processed

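The authors deposited linear intensities, with a single value for each probe set on each array. The signal algorithm, scaling and image software are not given in the sources used here. The values show that 42 arrays share a trimmed mean of 2501 intensity units and 4 arrays one of 2876. Among these 4 were the bottom arrays of control rat 3 and of b/b rat 3 given iron for 3 days. Per the labels, total RNA was labelled with biotin and hybridised to 1 array per rat and segment. Array medians of the 8 arrays compared ran from 639.3 to 1012, and the number of arrays limits the precision. Of 31099 probe sets, 57 controls were left out. Symbols came from the platform annotation, updated by gene ID: 20826 probe sets had 1 symbol, 436 several and 9780 none, and 20758 were found in RefSeq.

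The 44 villus arrays were quantile normalized after adding 44 intensity units, the 10th percentile, and taken to log2. A probe set was kept where 3 or more bottom arrays read above the 40th percentile of that array. Tests used limma 3.58.1 (lmFit, eBayes with a trend) in R 4.3.3 with data.table (version 1.17.8), on 20 counted samples in 6 groups, with Benjamini-Hochberg adjustment over 23047 probe sets and a threshold of 0.05. Arrays with a robust SD of differences under 0.2 were averaged. These were control rats 1 and 2 and, in the shared spread, b/b rats 1 and 2 on a normal diet (0.179 at the bottom). Each gene of a list is represented by 1 probe set, the brightest. On simulated data for these 23047 probe sets, log2 changes of 1, 2 and 3 were called in 27.3%, 63.6% and 77.3% of cases with 6 groups. Without repleted rat 3 the shares were 37.9%, 72.7% and 83.3%. Of the simulated calls, 7 of 118 with 6 groups and 9 of 137 without repleted rat 3 were false. On the real arrays the 6-group fit called 0 probe sets, so these shares cannot be taken to hold for them.

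Genes named are the iron transport genes, Hmox1 and Alox15, the 12 largest rises and 12 largest falls without overlap, up to 4 called members of each of 33 gene lists (or the 2 with the smallest p) and, between segments, the 6 largest differences called. Since the 6-group fit called none, the rule was applied to the fit without repleted rat 3, and further list members are given as values. The members, lists and rule were chosen with earlier results of these data known. Rat numbers do not pair rats between groups: same-number correlations were between -0.008 and 0.031. The crypt arrays were not used here.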

Additional observations from a re-analysis of the deposited data

Results flagged for a closer look

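Among 142 groups of 4 samples checked, 10 held a sample whose gap to the nearest other was large against the range of its group. Chance alone does this in about 1 of 20 groups. In deficient rat 4 this was so for Slc11a2 (1367877_at), at 16.00 against 16.93 to 17.03 in the other deficient rats, for Cybrd1, at 13.42 against 16.07 to 16.16, for Slc30a10, at 12.26 against 14.23 to 14.57, for Acsl3, a fatty acid ligase, at 12.07 against 12.74 to 12.75, and for Etfrf1, at 13.20 against 12.77 to 12.82. In deficient rat 1 it was so for the pancreas protease Cela3b, at 15.43 against 6.47 to 6.61, for the mean of the pancreas markers, at 15.19 against 7.72 to 8.20, and for the endothelial receptor Tek, at 10.84 against 10.40 to 10.45. Deficient rat 2 stood apart in Mzb1, at 11.80 against 11.26 to 11.35, and deficient rat 3 in the mean of the stroma markers, at 12.01 against 12.31 to 12.35.

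The difference between deficient and control rats was itself different at the villus bottom and the top for 14 named probe sets, by the test of the bottom minus the top without repleted rat 3 (limma adjusted p under 0.05; with 6 groups the adjusted p of each was 0.157 or higher). The values were 1.98 for Slc11a2, 2.84 for Cybrd1, 1.34 for Slc40a1, 1.56 for Me1, 2.08 for the bilirubin and drug exporter Abcc2 (adjusted p = 0.0497), 1.77 for Wipf3 (0.0158), 2.31 for the aromatic amino acid carrier Slc16a10 (0.0148), 1.79 for Etfrf1 (0.0277), 6.43 for Dnase1, 3.44 for Abcg8, 3.16 for Klf15, -3.15 for Inmt, 3.07 for Slc2a5 and 3.06 for Slc13a1.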

How the results depend on the processing

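With 6 groups, 0 probe sets passed, also with other pseudocounts, filters, deposited or median-centred values, eBayes without a trend or robust, and the stroma or pancreas mean as a covariate. The count was 172 with the 8 arrays normalized and fitted alone and 156 with the 2 groups alone in the fit. It was 111 with all rats counted separately, 426 with array weights and 1 with Xist as a covariate. With the replicate number as a block and all rats counted separately it was 563. The labels do not say that these numbers pair rats. Leaving out 1 sample gave 0 to 348. Without repleted rat 3 the count of 348 was 599 with median centring, 636 with all rats separately, 116 without a trend, 2 with the stroma covariate and 33 to 491 with 1 more sample left out (952 without control rats 1 and 2), and each of the 348 kept its sign in the alternatives of that fit. By the naming rule for the bottom, 54 probe sets passed without repleted rat 3. Of these, 14 remained called without control rat 3 as well, 29 without control rat 4, 27 without a trend and 1 with the stroma covariate. Further list members given as values are not among the 54. For bottom minus top, the count of 0 was 23 with median centring, 4 with all rats separately, 11 with the replicate block and all rats separately, and 0 to 228 with 1 sample left out.

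Some values changed sign. With the stroma covariate these were Hpgd (-0.10), Cdhr2 (-0.22), Sult1b1 (-0.06), Krt20 (-0.17), Pnliprp2 (-0.24), Pla2g2a (0.28), Lyz2 (0.10), Slc16a10 (-0.09), Etfrf1 (-0.21), Abcg8 (-1.17), Slc2a5 (-0.35) and Slc13a1 (-0.04), all with 6 groups. With median centring they were Cox5b (0.22), Lyz2 (0.03) and Fcgbp (0.07). Leaving out 1 sample gave ranges across 0 for Pnliprp2 (-0.41 without deficient rat 1, up to 1.39), Klf15 (-0.60, up to 0.01 without deficient rat 1), Etfrf1 (-0.05 without control rat 3, up to 0.26) and Abcg8 (-0.32 without control rat 3, up to 1.52). Without control rats 1 and 2, Cela3b was 0.65 and Dnase1 1.12. Between segments, Tfrc 1388750_at was -0.20 without control rat 3 and -0.28 without deficient rat 4, and up to 0.69 with 1 sample left out. Hmox1 was -0.03 as deposited, -0.01 with all rats separately, -0.01 with the replicate block and all rats separately, and between -0.19 (without control rat 3) and 0.42 with 1 sample left out. The cause of these changes was not tested.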
